A study of Homo sapiens with 9 samples.

Results

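The 50 genes described here code for proteins that build the mitotic spindle, attach chromosomes to it and bring mitosis to its end. They came from a list of symbols, and all 50 were found by Ensembl identifier among the 57338 genes of the deposited expression table. By the labels, RNA was measured in HEK293T cells, a human embryonic kidney line, transfected with TransIT-LT1 and a plasmid for EGFP alone (pcDNA3.1-EGFP, named empty vector), for EGFP with human protamine 1 (EGFP-hPRM1) or for EGFP with human protamine 2 (EGFP-hPRM2). As the methods describe it, live cells with a high EGFP signal were sorted 3 days after transfection in all 3 groups, which would differ only in the protamine of the plasmid. The expression values do not bear this out for the libraries labelled hPRM1, as given below. Each group had 3 libraries of transcript 3′ ends (QuantSeq), given below in the order of replicates 1, 2 and 3. The sources used here do not say whether these were separate transfections, and p-values then measure only the spread between the libraries.

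Mitosis begins when cyclin-dependent and polo-like kinases drive the cell into division, and Aurora kinases correct wrong attachments between chromosomes and spindle microtubules. Kinetochores, protein assemblies on the centromere, bind the microtubules, and the spindle assembly checkpoint holds the anaphase-promoting complex inactive until every chromosome is attached. That complex then marks securin and cyclin B for degradation, separase cuts cohesin, the sister chromatids part, and kinesins and midzone proteins prepare cytokinesis. Most genes of this machinery are transcribed in G2 and M phase, so their RNA is abundant in dividing cultures such as HEK293T and low in cells that have left the cycle.

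Before the genes are described, the labels were checked. PRM2 was listed at 71224, 60050 and 36130 RPKM (reads scaled to the library total and to gene length in kilobases) in the hPRM2 libraries and at 0 in the other 6 libraries. PRM1 was listed at 0 in all 9 libraries, so the second protamine group is named "libraries labelled hPRM1" throughout, and every direction given for it rests on that label. Of 12 markers of HEK293T cells, 9 had no signal in any library labelled hPRM1 (each at 0), and the summed RPKM of the list was 0.370 to 0.999 there, against 370.4 to 469 in empty vector and 333 to 426 in hPRM2. Markers of blood cells stood the other way. The summed RPKM of 12 haemoglobin and red cell genes was 2060289 to 2266440 in the libraries labelled hPRM1 and 2.16 to 18.2 in the other 6 libraries, with 9 of the 12, among them HBB and ALAS2, listed at 0 in all 6. Neutrophil and monocyte markers summed to 6348 to 7386 RPKM in the libraries labelled hPRM1 (FCGR3B at 0), against 16.0 to 49.0 elsewhere, and lymphocyte markers to 959 to 1235 RPKM, against 0 to 71.0. Platelet markers summed to 341 to 603 RPKM there and to 8.61 to 32.1 elsewhere. The library names of the libraries labelled hPRM1 also belong to another number series than those of the other 6, so library series, cell content and plasmid cannot be told apart in that group, and their part in its results was not tested.

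The reads on genes, estimated from the spacing of low values, were 7960000 to 10750000 per library in empty vector, 4200000 to 5840000 in the libraries labelled hPRM1 and 1280000 to 2650000 in hPRM2. Haemoglobin genes took 63.0% to 69.3% of the estimated reads in the libraries labelled hPRM1 and 0% in the others. One hPRM2 library, replicate 1, stood apart. It had 9652 genes above 0, against 14353 and 15633 in replicates 2 and 3, although its estimated reads were the most of the group (2650000). Over all genes, the Pearson correlation of its log2 values with replicates 2 and 3 was 0.700 and 0.728, against 0.840 between those. Of the 50 genes, 46 were above 0 in replicate 1, against 47 and 49 in replicates 2 and 3. Whether zeros and high values of single genes in replicate 1 belong to the difference across the whole library was not tested, nor was its cause. Over the 50 genes, the Pearson correlation of log2 values between hPRM2 replicate 1 and its group was 0.584 and 0.613, against 0.836 between replicates 2 and 3 and 0.947 to 0.967 among the empty vector libraries. The hPRM2 counts of calls and the differences of several genes are given with and without replicate 1, and those of other genes only with it.

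Many of the 50 promoters share a sequence element that the choice of genes did not use. The cell cycle homology region, a short element read TTTGAA that the DREAM and MYB-MuvB complexes bind in G2/M genes, and the CCAAT box, bound by NF-Y, were searched on both strands in the RefSeq promoters (GRCh38.p14, 250 bases before to 50 bases after the start of the gene). Of the 50 genes, 41 had an entry. TTTGAA was found in 28 of the 41 (68.3%), against 15.2% of all 34796 promoters, and CCAAT in 32 of the 41 (78%), against 34.6%. Both were present in 22 of the 41 (53.7%), against 5.93%. The variant TTCGAA was found in 3 of the 41 (7.32%), against 1.45%. A window in which matches overlap counts for each motif, and a match describes letters only. Shown are the promoters of a kinase (PLK1), of a midzone protein with one of the highest levels (PRC1) and of both cytokinesis genes (ECT2 and ANLN), because they carry the element in different arrangements. Capitals mark TTTGAA and CCAAT on either strand (TTCAAA and ATTGG are the reverse).
PLK1 (chr16:23678639-23678938, plus strand): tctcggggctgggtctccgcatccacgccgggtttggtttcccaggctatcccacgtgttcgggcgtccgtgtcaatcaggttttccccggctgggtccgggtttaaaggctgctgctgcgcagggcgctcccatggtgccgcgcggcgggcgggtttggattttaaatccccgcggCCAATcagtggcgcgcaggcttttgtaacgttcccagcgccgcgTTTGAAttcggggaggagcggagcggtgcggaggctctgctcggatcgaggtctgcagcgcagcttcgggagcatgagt
PRC1 (chr15:90994486-90994785, minus strand): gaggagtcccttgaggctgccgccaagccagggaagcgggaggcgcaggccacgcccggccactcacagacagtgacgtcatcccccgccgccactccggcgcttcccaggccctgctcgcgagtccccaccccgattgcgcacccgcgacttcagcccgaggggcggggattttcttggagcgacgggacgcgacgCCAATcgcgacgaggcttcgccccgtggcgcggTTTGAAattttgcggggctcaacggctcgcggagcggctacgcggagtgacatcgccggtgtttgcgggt
ECT2 (chr3:172750476-172750775, plus strand): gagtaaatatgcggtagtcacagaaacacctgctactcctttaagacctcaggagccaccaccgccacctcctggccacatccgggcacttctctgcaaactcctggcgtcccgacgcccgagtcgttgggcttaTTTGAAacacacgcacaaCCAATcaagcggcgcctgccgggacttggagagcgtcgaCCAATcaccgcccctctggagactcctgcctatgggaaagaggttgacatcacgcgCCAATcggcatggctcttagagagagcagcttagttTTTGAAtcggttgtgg
ANLN (chr7:36389612-36389911, plus strand): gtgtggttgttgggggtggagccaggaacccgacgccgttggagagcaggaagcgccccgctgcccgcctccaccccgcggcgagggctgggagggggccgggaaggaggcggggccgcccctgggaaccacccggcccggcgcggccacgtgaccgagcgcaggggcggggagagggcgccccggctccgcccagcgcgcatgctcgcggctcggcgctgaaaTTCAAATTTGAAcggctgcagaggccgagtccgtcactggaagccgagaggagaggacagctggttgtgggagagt
PLK1 and PRC1 hold a CCAAT box followed by TTTGAA close to the start, ECT2 holds 3 CCAAT boxes between its 2 copies of TTTGAA, and ANLN holds 2 copies in opposite orientation side by side and no CCAAT. MAD1L1, CENPE and KIF2C hold neither motif in this window. No promoter entry was found for AURKA, BIRC5, BUB3, TTK, CENPH, CENPM, KNL1, TPX2 and UBE2C.

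In empty vector, 49 of the 50 genes were above 1 RPKM in each of the 3 libraries, and the exception was KIF23. The median gene had 28.8 to 34.9 RPKM per library, and the genes ranked high, with a median percentile of 83.8 to 85.0 among the 23552 genes above 0 in at least 1 library. The highest means were those of UBE2C (1047 ± 151 RPKM, SD, n = 3), the ubiquitin-conjugating enzyme of the anaphase-promoting complex, PTTG1 (645 ± 75.1), which codes for securin, and PRC1 (518 ± 86.7), which bundles microtubules of the spindle midzone. UBE2C lay above the other genes in every library, while the ranges of PTTG1 (573 to 723 RPKM) and PRC1 (440.3 to 612) overlapped. AURKB (360 ± 32.0) and BIRC5 (258 ± 22.8), partners in the chromosomal passenger complex, came next and did not overlap. The lowest levels above 0 were those of FZR1 (6.57 ± 3.44), ESPL1 (7.16 ± 2.27) and PLK4 (7.36 ± 3.00), whose ranges overlapped. RPKM divides by gene length although these libraries are read at the 3′ end, so the order of genes depends on the lengths that were used. The standard deviation between replicates was modest, with a median of 21.1% of the mean over the genes, against 66.1% in hPRM2 and 70.1% in the libraries labelled hPRM1.

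**Figure D1:**
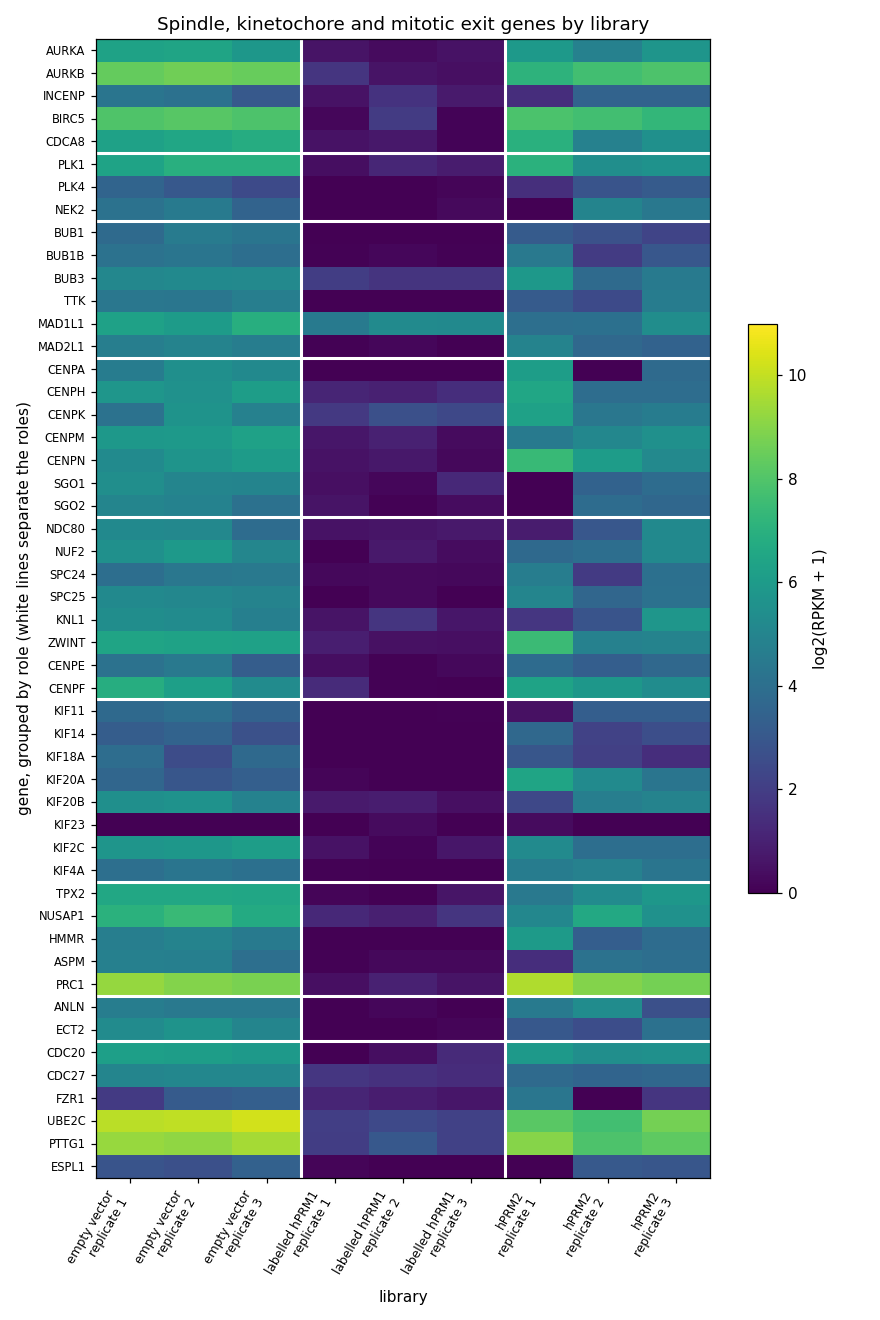
Level of each of the 50 genes (rows, grouped by role with white lines between roles) in each of the 9 libraries (columns), as log2(RPKM + 1) on a colour scale from dark (0) to yellow (high). The 3 empty vector columns look alike, the 3 columns labelled hPRM1 are dark for nearly all genes except MAD1L1, and hPRM2 replicate 1 differs from hPRM2 replicates 2 and 3 in several rows.

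The libraries labelled hPRM1 held little of this RNA. Without a filter on low values, 49 of the 50 genes were called lower than in empty vector and 0 higher (limma on log2(RPKM + 1), adjusted p at most 0.05 and at least a 2-fold change), beside 38.7% of 22088 genes called lower and 8.26% called higher. The exception was KIF23. With genes tested only at 1 RPKM or more in at least 3 of 6 libraries, 49 genes entered and all 49 were called, beside 62.5% of 13588 genes. In all 49 the highest library labelled hPRM1 lay below the lowest empty vector library, as in 66.4% of the genes tested, and 0 of the 49 showed the reverse, as 14.5% of the genes tested did. Without the filter, 49 of 50 lay wholly below, beside 45.1% of genes, and 0 wholly above, beside 11.9%. Of the 49 genes, 42 passed the filter only through empty vector, so the filter largely fixed their direction. BUB3, MAD1L1, CENPH, CENPK, CDC27, UBE2C and PTTG1 passed it in both groups. The median difference of the 49 was -4.50 on the log2(RPKM + 1) scale and -1.72 over all genes tested, and 48 lay below that median. These differences depend on the pseudocount, since 30 to 34 of the genes per library were at or below the value that 3 reads would give, and BUB1, TTK, CENPA, KIF18A and HMMR had the value 0 in every library of the group. The scaling also mattered, since the deposited values are divided by a library total that includes the haemoglobin reads. When the libraries were rescaled by the median of ratios, the median of all genes moved to -0.12, the median of the 49 genes to -3.22 and the count to 46, without CENPK, FZR1 and MAD1L1. Of all 13588 genes, 3945 were called lower with that scaling. The share of lower genes among all calls fell from 82.9% to 50.1% under that scaling, to 55.8% with quantile normalization and to 63.3% with the total without haemoglobin. In bulk samples, fewer cells of a type and less RNA per cell cannot be told apart.

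The hPRM2 libraries kept more of this RNA, and the median gene had 64.5% of its empty vector mean. A single gene, UBE2C, was called lower than in empty vector among the 49 tested and 0 were called higher, beside 1.37% of 13126 genes called lower and 1.36% called higher. The median difference was -0.94, against -0.72 over all genes tested, and 32 of the 49 lay below that median. Of the 49 genes, 41 passed the filter in both groups. The other 8, SGO1 among them, passed it only through empty vector, which favours a lower value in hPRM2. The hPRM2 values lay wholly below empty vector in 15 of the 49 genes, beside 29.9% of all genes tested, and wholly above in 1, KIF20A, beside 6.01%. Before adjustment, 13 genes had a p under 0.05. The share of all genes tested at that p was not computed, so this count is not read as a trait of the 49 genes. The number that passed depended on single libraries. Without hPRM2 replicate 1, 11 genes were called lower (CDCA8, PLK1, BUB1, CENPH, SGO1, ZWINT, KIF2C, ECT2, CDC27, UBE2C and PTTG1), beside 12.3% of 13126 genes called lower and 6.17% called higher, so the number of calls rose across all genes. The median difference of the 49 genes was -0.90, close to the value with all libraries. Leaving out hPRM2 replicate 2 or 3, or any empty vector library, left 0 calls by limma, and so did testing without a filter (0 of 50 genes, beside 0.0814% of 20888 genes called lower and 0.345% called higher). In a fit of all 9 libraries, which shares the spread across groups, 6 genes were called lower (BUB1, MAD1L1, KIF2C, ECT2, CDC27 and UBE2C) and KIF20A higher, beside 12.3% of 13126 genes called lower and 3.86% called higher. The share of the 49 genes called lower in that fit was close to that of all genes. Under median-of-ratios scaling, all genes had a median of -0.26 and the 49 genes one of -0.45, and the share of lower genes among all calls went from 50.1% to 27.3% (17.0% with quantile normalization).

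**Figure D2:**
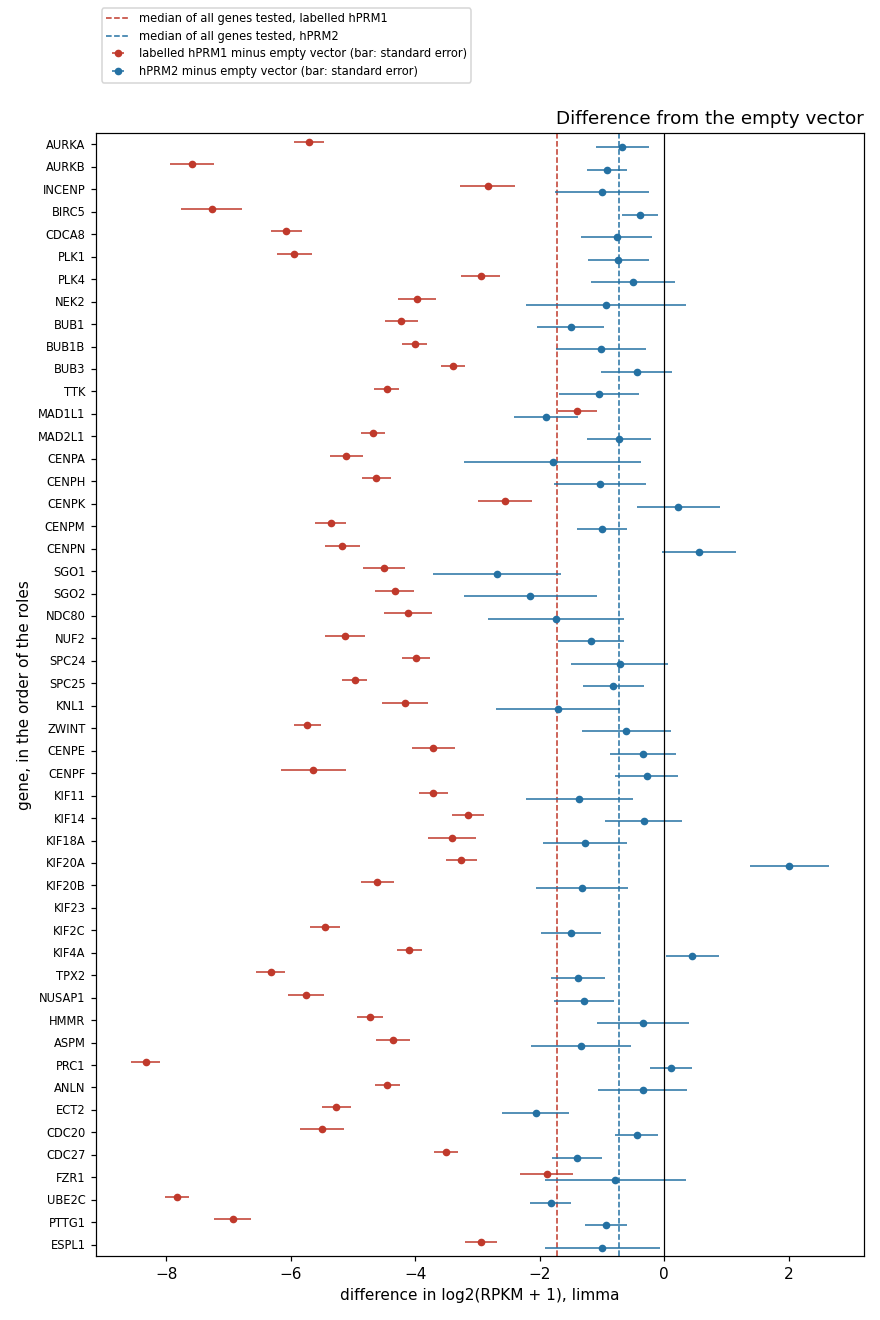
Difference from empty vector for each gene (vertical axis, in the order of the roles) on the log2(RPKM + 1) scale (horizontal axis), for the libraries labelled hPRM1 (red) and for hPRM2 (blue); points are limma estimates, bars their standard errors, and dashed lines the medians of all genes tested (-1.72 and -0.72). In this scaling all 49 red points lie below 0 and MAD1L1 alone lies above its dashed line; MAD1L1 turns positive when the libraries are rescaled. The blue points scatter around their dashed line, with KIF20A at 2.01.

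The Aurora kinases and the chromosomal passenger complex correct attachments and later act in the midzone. In the libraries labelled hPRM1, all 5 genes of this group were called lower, with differences from -7.59 to -2.84, and in hPRM2 none was called, with differences from -0.99 to -0.38. AURKB, the kinase of the complex, had 338, 397 and 344 RPKM in empty vector, 2.21, 0.473 and 0.381 in the hPRM1-labelled libraries and 136, 202 and 246 in hPRM2. The 3 groups did not overlap. AURKB fell by 7.59 (SE 0.35, adjusted p = 6.13e-06) in the libraries labelled hPRM1, and its hPRM2 difference of -0.92 (SE 0.32) had an adjusted p of 0.139. INCENP, the scaffold that anchors AURKB, had 18.4, 16.3 and 7.31 RPKM in empty vector, 0.445, 2.08 and 0.721 in the hPRM1-labelled libraries and 1.75, 10.3 and 10.5 in hPRM2. It had the smallest difference of the group in the libraries labelled hPRM1 (-2.84, SE 0.44, adjusted p = 0.000882), and its hPRM2 values overlapped those of both other groups. BIRC5, or survivin, kept a mean of 200 ± 41.2 RPKM (SD, n = 3) in hPRM2 against 258 ± 22.8 in empty vector. AURKA, the spindle pole kinase, had 47.1 ± 17.4 against 73.1 ± 15.6, and CDCA8, which codes for borealin, 65.4 ± 51.6 against 92.8 ± 17.2.

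Of the polo-like and NIMA-related kinases, all 3 were called lower in the libraries labelled hPRM1 and none in hPRM2. PLK1, which acts from mitotic entry to cytokinesis and whose promoter is shown above, had 82.4, 120.5 and 124 RPKM in empty vector, 0.345, 1.25 and 0.774 in the hPRM1-labelled libraries and 128, 42.6 and 47.7 in hPRM2. Replicate 1 of hPRM2 lay above all empty vector libraries, and replicates 2 and 3 lay below them. PLK1 fell by 5.95 (SE 0.28, adjusted p = 6.67e-06) in the libraries labelled hPRM1. In hPRM2 its difference was -0.74 (adjusted p = 0.369), and without replicate 1 it was -1.23 (adjusted p = 0.0404). PLK4, which starts centriole duplication, had 10.5, 7.07 and 4.52 RPKM in empty vector, was listed at 0 in 2 libraries labelled hPRM1 with 0.107 in replicate 3, and had 1.79, 6.17 and 8.04 in hPRM2. NEK2, which separates centrosomes, had 17.0, 21.9 and 10.3 RPKM in empty vector, 0, 0 and 0.203 in the hPRM1-labelled libraries and 0, 30.5 and 20.2 in hPRM2. The hPRM2 difference of NEK2 was -0.94 with all libraries and 0.63 without replicate 1, in which the gene was listed at 0, so it has no stable direction.

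All 6 spindle assembly checkpoint genes were called lower in the libraries labelled hPRM1 and none in hPRM2, but this group also holds the 1 gene that kept more than 10 RPKM in each library labelled hPRM1. MAD1L1 (chr7:1815793-2233243 on GRCh38), whose protein recruits MAD2 to kinetochores, had 76.6, 64.1 and 119 RPKM in empty vector, 22.2, 37.8 and 35.9 in the hPRM1-labelled libraries and 15.0, 15.9 and 41.5 in hPRM2. Both protamine groups lay below empty vector and overlapped each other. MAD1L1 was called lower in the libraries labelled hPRM1 as deposited (-1.40, SE 0.32, adjusted p = 0.00551), but its difference was 0.75 with the median of ratios (adjusted p = 0.0726), 0.34 with quantile normalization and 0.17 with the total without haemoglobin, so its direction depends on the scaling. Its mean percentile among all genes was 93.5 in the libraries labelled hPRM1 and 92.1 in empty vector. In hPRM2 the difference was -1.90 (SE 0.51, adjusted p = 0.0912). MAD2L1, the inhibitor of CDC20 that MAD1L1 recruits, had 25.3, 28.98 and 24.3 RPKM in empty vector, 0.0327, 0.137 and 0 in the hPRM1-labelled libraries and 28.99, 12.3 and 10.1 in hPRM2. MAD2L1 thus kept its level in 1 hPRM2 library only, and its hPRM2 difference was -0.72 (adjusted p = 0.395). The kinases BUB1 and TTK, at 0 in each library labelled hPRM1, had means of 18.2 ± 5.12 and 21.2 ± 3.20 RPKM in empty vector. BUB3, a WD-repeat partner of BUB1, had 34.9 ± 1.93 RPKM in empty vector, 2.42 ± 0.445 in the libraries labelled hPRM1 and 30.4 ± 23.1 in hPRM2. BUB1B, which codes for BubR1 of the checkpoint complex, had 16.5 ± 1.77, 0.0816 ± 0.0512 and 10.2 ± 9.47 RPKM in the same order. Its last 500 bases lie also in the readthrough gene BUB1B-PAK6, so reads there cannot be assigned to 1 of them.

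All 7 centromere and inner kinetochore genes were called lower in the libraries labelled hPRM1, from -5.36 to -2.56, and none in hPRM2. CENPM, an inner kinetochore subunit, had the highest level of the group in empty vector (57.4, 60.4 and 76.6 RPKM). It had 0.586, 0.995 and 0.267 RPKM in the libraries labelled hPRM1 and 21.4, 32.8 and 44.6 in hPRM2, with no overlap among the 3 groups. CENPK, a subunit of the constitutive centromere network, had 16.5, 49.5 and 27.5 RPKM in empty vector, 2.56, 5.47 and 4.30 in the hPRM1-labelled libraries and 77.8, 19.8 and 23.5 in hPRM2. CENPK fell least in the group (-2.56, SE 0.44, adjusted p = 0.00144), and its difference was -0.61 (adjusted p = 0.223) with the median of ratios. CENPK also lost the call with quantile normalization and with the per-gene test of the study's methods on RPKM. SGO1, or shugoshin, which protects centromeric cohesin, had 41.9, 30.8 and 30.4 RPKM in empty vector, 0.353, 0.138 and 1.39 in the hPRM1-labelled libraries and 0, 9.88 and 13.8 in hPRM2. SGO1 had the most negative hPRM2 difference of the 50 genes (-2.69, SE 1.03, adjusted p = 0.167), which was -1.46 (adjusted p = 0.0405) without replicate 1. It passed the filter only through empty vector, so the filter favoured this direction. CENPA, the centromeric histone H3, showed how uneven the hPRM2 libraries were, with 69.7, 0 and 12.9 RPKM against 23.9, 43.1 and 36.3 in empty vector. CENPN, which reads the CENPA nucleosome, had a mean of 89.9 ± 68.7 RPKM in hPRM2 and 50.9 ± 13.7 in empty vector, within the spread of the replicates (adjusted p = 0.561). CENPH, a partner of CENPK, had 56.3 ± 11.7 RPKM in empty vector, 1.31 ± 0.332 in the libraries labelled hPRM1 and 39.5 ± 43.8 in hPRM2, where its difference was -1.90 (adjusted p = 0.0216) without replicate 1 and -1.04 (adjusted p = 0.396) with it. SGO2, the second shugoshin, had 25.4 ± 8.30, 0.274 ± 0.207 and 8.48 ± 7.40 RPKM in the same order.

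The outer kinetochore binds microtubules through the NDC80 complex. All 8 genes were called lower in the libraries labelled hPRM1, from -5.74 to -3.71, and in hPRM2 none was called and no gene lay wholly below or above empty vector. NDC80 had 36.8, 33.7 and 13.9 RPKM in empty vector, 0.444, 0.535 and 0.663 in the hPRM1-labelled libraries and 0.785, 6.81 and 36.4 in hPRM2. The hPRM2 libraries of NDC80 thus ranged from just above the libraries labelled hPRM1 to within empty vector. ZWINT, which links KNL1 to the RZZ complex, had 84.9, 79.8 and 78.4 RPKM in empty vector, the smallest relative spread among the named outer kinetochore genes. It had 0.907, 0.409 and 0.354 in the libraries labelled hPRM1 and 177, 27.6 and 29.5 in hPRM2, where replicate 1 lay above and replicates 2 and 3 below every empty vector library. Without replicate 1 its hPRM2 difference was -1.47 (adjusted p = 0.0225), against -0.61 (adjusted p = 0.600) with it. CENPE, a kinesin that moves chromosomes to the spindle equator, had 16.9, 20.7 and 8.53 RPKM in empty vector, 0.318, 0.0594 and 0.183 in the hPRM1-labelled libraries and 13.5, 8.65 and 11.97 in hPRM2, which lay within the empty vector range. The other NDC80 complex subunits had hPRM2 differences of -1.18 (NUF2), -0.72 (SPC24) and -0.82 (SPC25), none of them called. KNL1, the scaffold for BUB proteins, had 41.2, 38.8 and 26.0 RPKM in empty vector and 2.33, 6.26 and 53.3 in hPRM2, and CENPF, a large protein of the kinetochore corona, had 115, 72.5 and 38.5 against 81.5, 55.0 and 39.3.

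Among the kinesins, 7 of 8 were called lower in the libraries labelled hPRM1, and KIF20A was the only 1 of the 50 genes with all hPRM2 libraries above empty vector. KIF20A (chr5:138178719-138187715 on GRCh38), or MKLP2, carries the passenger complex to the midzone. It had 11.4, 6.74 and 9.17 RPKM in empty vector, 0.116, 0 and 0 in the hPRM1-labelled libraries and 85.1, 37.3 and 18.3 in hPRM2. The hPRM2 difference was 2.01 (SE 0.63), but its adjusted p was 0.121, and 0.0683 without replicate 1 (difference 1.45). Only the fit of all 9 libraries called it (adjusted p = 0.0402). The last 500 bases of KIF20A overlap CDC23 on the other strand, and reads of the pair cannot be told apart unless the counting used strand, which is not given in the sources used here. CDC23, a subunit of the anaphase-promoting complex, had 40.6, 44.9 and 49.2 RPKM in empty vector and 41.4, 19.4 and 28.1 in hPRM2. KIF2C, or MCAK, which depolymerizes microtubules at centromeres, had 52.7, 55.5 and 69.3 RPKM in empty vector, 0.454, 0.0903 and 0.592 in the hPRM1-labelled libraries and 37.7, 14.9 and 14.5 in hPRM2, with no overlap among the groups. Its hPRM2 difference was -1.49 (adjusted p = 0.126), and -1.93 (adjusted p = 0.0176) without replicate 1. KIF14, which acts with PRC1 and citron kinase, had 8.42, 10.4 and 5.71 RPKM in empty vector, 0.0259, 0 and 0 in the hPRM1-labelled libraries and 11.96, 3.47 and 5.29 in hPRM2. KIF23, or MKLP1 of the centralspindlin complex, was listed at 0 in all 3 empty vector libraries, at 0.232 RPKM in replicate 2 of the libraries labelled hPRM1 and at 0.268 RPKM in hPRM2 replicate 1. It was therefore not tested, and its values do not exceed what 3 reads would give in these libraries. KIF11, KIF18A and KIF20B had lower means in hPRM2 (6.06, 3.82 and 19.5 RPKM) than in empty vector (12.4, 10.5 and 39.9) and KIF4A a higher one (23.1 against 16.4), none of them called.

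The 5 spindle assembly and midzone genes were called lower in the libraries labelled hPRM1, from -8.33 to -4.36. PRC1, whose promoter is shown above, had the largest fall of the 50 genes. Its levels were 612, 503 and 440.3 RPKM in empty vector, 0.368, 1.01 and 0.481 in the hPRM1-labelled libraries and 833, 498 and 410.3 in hPRM2. PRC1 fell by 8.33 (SE 0.24, adjusted p = 2.46e-06) in the libraries labelled hPRM1, while its hPRM2 libraries overlapped empty vector (difference 0.11, SE 0.34, adjusted p = 0.846). PRC1 overlaps the antisense gene PRC1-AS1 and another gene on its own strand at its 3′ end, so reads there cannot be assigned to PRC1 alone, and counting by strand would not separate it from the gene on its own strand. TPX2, which activates AURKA on the spindle, had 95.6, 97.0 and 90.6 RPKM in empty vector, 0.105, 0 and 0.530 in the hPRM1-labelled libraries and 20.9, 38.2 and 56.3 in hPRM2, with no overlap among the groups. Its hPRM2 difference of -1.38 (SE 0.43) had an adjusted p of 0.121. ASPM, which focuses the spindle poles, had 27.0, 25.7 and 15.4 RPKM in empty vector, 0.0481, 0.165 and 0.164 in the hPRM1-labelled libraries and 1.73, 16.6 and 14.8 in hPRM2. NUSAP1, a microtubule-binding spindle protein, had 135 ± 36.7 RPKM in empty vector and 59.7 ± 35.1 in hPRM2, and HMMR, which acts at spindle poles, 25.6 ± 3.77 and 28.4 ± 29.9. Each library labelled hPRM1 had HMMR at 0.

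Both cytokinesis genes were called lower in the libraries labelled hPRM1 (ECT2 -5.27 and ANLN -4.45, adjusted p = 5.62e-06 and 5.26e-06) and neither in hPRM2. ECT2 (chr3:172750682-172821474 on GRCh38), the exchange factor that activates RhoA at the division plane, had 38.2, 49.4 and 30.8 RPKM in empty vector, 0, 0 and 0.0997 in the hPRM1-labelled libraries and 7.17, 5.12 and 16.1 in hPRM2. The 3 groups did not overlap. The hPRM2 difference of ECT2 was -2.07 (SE 0.54, adjusted p = 0.0858) with all libraries, and -1.96 (adjusted p = 0.0497) without replicate 1. ANLN, the anillin scaffold of the contractile ring, had 24.0, 20.9 and 20.5 RPKM in empty vector, 0, 0.1299 and 0 in the hPRM1-labelled libraries and 21.5, 39.3 and 5.36 in hPRM2, which spread to both sides of empty vector.

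The anaphase-promoting complex group held the single gene called in hPRM2. UBE2C (chr20:45812576-45816957 on GRCh38) had 929, 996 and 1217 RPKM in empty vector, 3.09, 4.31 and 3.39 in the hPRM1-labelled libraries and 293, 205 and 417 in hPRM2. The 3 groups did not overlap, and the hPRM2 mean was 29.1% of that of empty vector. UBE2C fell by 1.83 (SE 0.33, adjusted p = 0.0413) in hPRM2 and fell by 7.83 (SE 0.20, adjusted p = 1.97e-06) in the libraries labelled hPRM1. The hPRM2 call was close to the threshold and was lost with a replicate block (adjusted p = 0.104), without the filter (adjusted p = 0.0976), with the median of ratios (difference -1.26, adjusted p = 0.0889) and when any empty vector library or hPRM2 replicate 2 or 3 was left out (adjusted p = 0.0590 to 0.166), while the difference stayed between -2.08 and -1.26. It was also lost with the per-gene test of the study's methods, on RPKM and on log2 values. PTTG1, or securin, the inhibitor of separase, had 638, 573 and 723 RPKM in empty vector, 3.05, 7.08 and 3.42 in the hPRM1-labelled libraries and 506, 239 and 311 in hPRM2. It lay below empty vector in all 3 hPRM2 libraries, with a difference of -0.94 (adjusted p = 0.153). CDC27, a core subunit, had close replicates, with 31.6, 33.4 and 33.0 RPKM in empty vector, 2.31, 1.93 and 1.65 in the hPRM1-labelled libraries and 13.0, 10.8 and 11.6 in hPRM2. The hPRM2 mean of CDC27 was 36.2% of that of empty vector (difference -1.40, adjusted p = 0.101, and 0.0322 without replicate 1). The per-gene test on RPKM called CDC27 lower, as the only 1 of the 49 genes and 1 of 9 among all genes tested, and on log2 values that test called none. FZR1, or CDH1, which keeps the complex active after mitosis, had 2.64, 8.03 and 9.03 RPKM in empty vector, 1.20, 0.862 and 0.578 in the hPRM1-labelled libraries and 18.9, 0 and 2.26 in hPRM2. FZR1 was called lower in the libraries labelled hPRM1 (-1.89, SE 0.43, adjusted p = 0.00541), but not with the median of ratios (-0.43, adjusted p = 0.375) or the total without haemoglobin (-0.94, adjusted p = 0.114). FZR1 also lost the call with quantile normalization, a pseudocount of 5, the fit of all 9 libraries and both forms of the per-gene test. Its 3′ end overlaps MFSD12 on the other strand. CDC20, the activator that the checkpoint inhibits, kept 49.3 ± 10.8 RPKM in hPRM2 against 66.6 ± 7.29 in empty vector, and ESPL1, or separase, had 0, 7.42 and 6.59 against 6.31, 5.43 and 9.73.

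**Figure D3:**
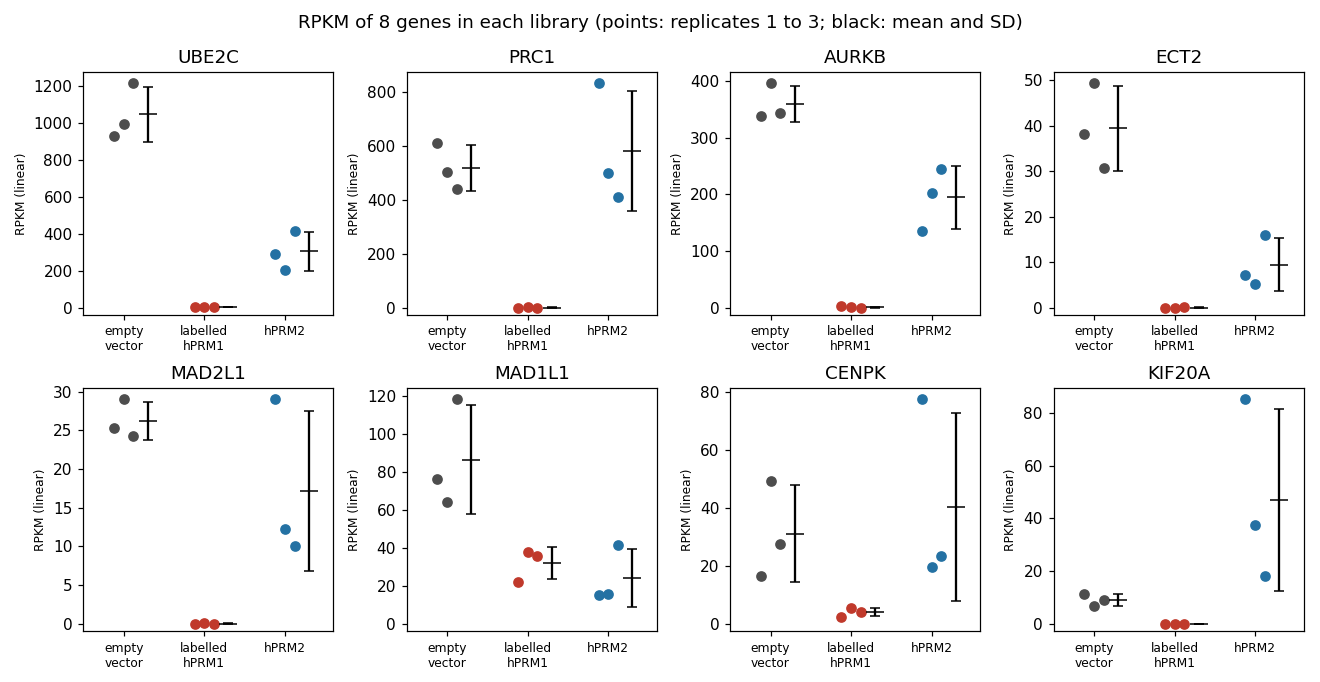
RPKM (linear vertical axes starting at or just below 0) of 8 genes in the 3 libraries of each group (horizontal axis); coloured points are libraries and black marks the mean with its SD (n = 3). UBE2C and ECT2 separate all 3 groups, PRC1 and MAD2L1 overlap between empty vector and hPRM2, MAD1L1 overlaps between both protamine groups, and KIF20A is highest in hPRM2.

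The libraries labelled hPRM1 were also set directly against hPRM2, which leaves empty vector out. In this comparison 43 of the 50 genes passed the filter and 38 were called lower in the libraries labelled hPRM1, beside 37.0% of 11756 genes, and 0 higher, beside 16.0%. Of the 43 genes, 34 passed the filter only through hPRM2, so the filter largely fixed their direction, and 7 passed it in both groups. Without a filter, 38 of 50 were lower, beside 17.2% of 21719 genes, and 0 higher, beside 7.57%. The libraries labelled hPRM1 lay wholly below hPRM2 in 39 of the 43, beside 43.1% of the genes tested, and wholly above in 0, beside 19.0%. Without the filter they lay wholly below in 41 of 50, beside 25.2% of genes, and wholly above in 0, beside 14.2%. The median difference was -3.96, against -0.97 over all genes tested. PRC1 again had the largest fall (-8.44, SE 0.39, adjusted p = 5.35e-05), followed by the passenger complex genes BIRC5 (-6.89, adjusted p = 0.000283) and AURKB (-6.67, adjusted p = 0.000189). Not called were INCENP, SGO1, KNL1, FZR1 and MAD1L1. SGO1 had a difference of -1.82 with all libraries and of -3.04 (adjusted p = 0.00186) without hPRM2 replicate 1, in which it was listed at 0, and INCENP likewise went from -1.85 (adjusted p = 0.0664) to -2.53 (adjusted p = 0.00324). MAD1L1 stood at 0.51 (adjusted p = 0.431) as deposited and was called higher in the libraries labelled hPRM1 with the median of ratios (2.36, adjusted p = 0.00707), quantile normalization (1.85, adjusted p = 0.0124) and the total without haemoglobin (2.08, adjusted p = 0.0141). The share of lower genes among all calls went from 69.9% to 37.0%, 51.7% and 44.2% under these 3 scalings. Of the 43 genes tested, 34, 39 and 35 were called lower, beside 2151, 3104 and 2481 of 11756 genes.

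Beside the 50 genes, 102 other genes of mitosis from 8 lists were looked at. In the libraries labelled hPRM1, 96 of the 101 tested were called lower, beside 62.5% of 13588 genes, and 0 higher, beside 12.9%. Their median difference was -3.49, against -1.72 over all genes tested. Of the 101, 56 passed the filter only through empty vector, so the filter largely fixed their direction. Without the filter, 96 of 102 were called lower, beside 38.7% of 22088 genes. These counts hold for the deposited scaling. With the median of ratios the median of all genes tested moved to -0.12. Calls of the 102 genes under other scalings are not given here, so genes with small differences may lose theirs. The list of mitotic entry and G2/M transcription factors had 14 of 15 lower. It included TOP2A, which untangles sister DNA, with 725, 627 and 990.3 RPKM in empty vector, against 1.02, 1.60 and 0.973, and CDK1, the central mitotic kinase, with 414, 318 and 143 against 0, 0 and 0.702. All 8 condensin genes, all 13 genes listed under the MIS12, SKA and RZZ complexes and all 15 other centromere genes (CENPW at -7.25) were lower. The list of 13 also holds SPDL1, a dynein adaptor, at -8.74. The cohesin list differed most, with 9 of 12 lower. NIPBL, the cohesin loader, had 23.3, 24.3 and 10.2 RPKM in empty vector, against 13.4, 22.5 and 19.6 in the libraries labelled hPRM1, and STAG1, a cohesin subunit, had 12.4, 13.5 and 2.82 against 13.4, 15.0 and 14.8. These cohesin genes also act outside mitosis. NUMA1 (difference 0.31, adjusted p = 0.173) and CDC25B (0.33, adjusted p = 0.122), a spindle pole protein and a phosphatase that activates CDK1, did not pass the test. They were the only 2 of the 101 with all 3 libraries labelled hPRM1 above empty vector, beside 14.5% of the genes tested. In 96 of the 101 those libraries lay wholly below empty vector, beside 66.4%. PDS5B, a cohesin regulator, did not pass the test either (adjusted p = 0.113). In hPRM2, 0 of the 102 were called by limma, with 23 at an unadjusted p under 0.05, a share not computed for all genes tested. The median difference was -0.76, against -0.72 over all genes tested. Of the 102 in hPRM2, 89 passed the filter in both groups and 12 only through empty vector. The lowest adjusted p there was that of CDK1 (0.0652), with 71.4, 11.3 and 30.5 RPKM in hPRM2, below all empty vector libraries.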

How the data were processed

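RNA was measured in 9 libraries labelled as HEK293T cells, 3 per group. As the methods state, the authors trimmed and mapped the reads with nf-core/rnaseq (FastQC, Cutadapt, STAR, Salmon), removed mitochondrial genes and divided the counts by the library total and by gene length in kilobases, and they deposited these RPKM values without counts. The submitters' processing notes name hg38, and the annotation is not given in the sources used here. Of the Ensembl identifiers, 98.6% had a symbol. Coordinates come from GENCODE 29.

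Groups and replicate numbers were taken from sample titles. Comparisons used R 4.3.3 and limma 3.58.1 (lmFit, eBayes with trend and robust) on log2(RPKM + 1), for genes with at least 1 RPKM in at least 3 of 6 libraries, with Benjamini-Hochberg adjustment over all genes tested. Genes were called at an adjusted p of at most 0.05 with at least a 2-fold change. Differences on this scale understate changes of low genes. The fit was tested on simulated data. Summaries used Python 3.11.15, pandas 2.3.3 and numpy 2.4.6, and figures matplotlib 3.10.9.

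The deposited values hold no read totals. Reads on genes were estimated from the steps between low values of genes with 1 transcript, 600 to 20000 bases long, with 250 bases subtracted. A 0 was taken to allow at most 3 reads (counting error only).

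The 50 genes and the gene lists were chosen with earlier results of these data known, and 0 columns of values were left unused. Genes given with values in every library are, per role, the highest in empty vector, the largest and smallest difference in the libraries labelled hPRM1 and the largest in hPRM2, and any gene called in hPRM2 or not tested. TOP2A was given as the largest fall of its list in the libraries labelled hPRM1. Other genes named with library values (CENPA, KNL1, CENPF, PTTG1, CDC27, ESPL1, CDC23, CDK1, STAG1 and NIPBL) were chosen after their values were seen. The results were recomputed with a pseudocount of 0.1 or 5, without the filter or with a minimum of 10 RPKM, after scaling by the median of ratios, by quantiles or by the total without haemoglobin genes, in 1 fit of all 9 libraries, with a replicate block, with each library left out, without the fold threshold, and with the per-gene test that the study used, on RPKM and on log2 values, which called CDC27 in place of UBE2C in hPRM2 on RPKM and neither on log2 values.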

Additional observations from a re-analysis of the deposited data

How the results depend on the processing

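For the libraries labelled hPRM1 against empty vector, 46 to 49 of the 50 genes were called lower and 0 higher under the alternatives that kept 49 or more genes, except that the per-gene test of the study's methods on RPKM called 26. Of all 13588 genes, 3723 were called lower by that test, 3945 with the median of ratios and 8624 with a pseudocount of 0.1. The minimum of 10 RPKM kept 40 genes, all called lower, beside 4970 of 6983 genes. The median difference was -6.77 and -2.62 with pseudocounts of 0.1 and 5, -4.85 with the minimum of 10 RPKM, -3.22 with the median of ratios, -3.40 with quantile normalization and -4.23 with the total without haemoglobin. MAD1L1 turned to 0.75, 0.34 and 0.17 in these last 3 settings.

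For hPRM2 against empty vector, where 1 gene was called lower, the count was 0 without a filter, with the median of ratios, with the replicate block and with the per-gene test on log2 values, and 0 to 11 when 1 library was left out. The per-gene test on RPKM called 1 gene, CDC27 in place of UBE2C. In the fit of all 9 libraries it was 6, with 1 gene called higher. Over all 13126 genes, the calls lower were 81 with the median of ratios, 8 with the block and 1618 in that fit. They ranged from 2 to 1619 with 1 library left out. The per-gene test called 9 genes lower on RPKM and 0 on log2 values. The median difference was -0.69 with a pseudocount of 5, -0.45 with the median of ratios, -0.51 with quantile normalization and -0.62 with the per-gene test on RPKM, and -0.96 to -0.67 with 1 library left out. Some small hPRM2 differences changed sign. With the median of ratios, CENPE was 0.18, KIF14 0.15 and ANLN 0.19. With quantile normalization, PLK4 was 0.47, CENPE 0.17, KIF14 0.30, PRC1 -0.0353 and ANLN 0.0138. In the per-gene test on RPKM, NEK2 was 0.0387, ANLN 0.0164 and FZR1 0.0868. With 1 library left out, PLK4 ranged from -0.84 to 0.0087, NEK2 from -1.86 to 0.63, CENPK from -0.38 to 0.62, KIF14 from -0.76 to 0.0105, PRC1 from -0.18 to 0.33, ANLN from -0.93 to 0.40 and FZR1 from -1.94 to 0.22.

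For the libraries labelled hPRM1 against hPRM2, where 38 genes were called lower, the count was 25 with the minimum of 10 RPKM, 23 with the per-gene test on log2 values and 0 with that test on RPKM. Over all genes, these settings called 2828 of 5347, 2388 of 11756 and 103 of 11756 lower. With the median of ratios, quantile normalization and the total without haemoglobin, 1 gene was called higher, beside 3659, 2897 and 3136 of 11756 genes. The median difference was -5.94 and -2.20 with pseudocounts of 0.1 and 5, -3.39 without a filter, -4.99 with the minimum of 10 RPKM, -2.84 with the median of ratios, -3.40 with quantile normalization and -3.41 with the total without haemoglobin. With 1 library left out, FZR1 ranged from -2.11 to 0.0467, the latter without hPRM2 replicate 1. The cause of these changes was not tested, apart from the fewer genes that the higher minimum keeps.

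The replicate numbers showed no clear pairing of the libraries: the deviations of libraries with the same number correlated at -0.05 to 0.06. With 3 libraries per group, these correlations cannot decide whether the libraries were paired. With the replicate block, 49, 0 and 38 genes were called lower in the 3 comparisons, against 49, 1 and 38 without it. Over all genes tested, 8551, 8 and 4019 were called lower with the block, against 8491, 180 and 4355 without it. The estimated reads on genes were fewest in hPRM2, where 3 reads came to a median of 1.01 to 2.10 RPKM over the 50 genes, so lower values there cannot be told from 0. By the read numbers that the study states, hPRM2 lies above hPRM1, the reverse of this estimate. Those are all reads obtained per sample, while the estimate is of reads on genes, so the measures are unlike. The study also reports a decrease of exonic reads in hPRM2. The reason for the reversed order was not tested. The spread between the hPRM2 libraries limits that comparison too, as the counts with 1 library left out show.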

Other observations

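Among the blood cell markers used to check the labels, LCK, a kinase of T cell receptor signalling, was listed at 70.6, 45.3 and 33.3 RPKM in hPRM2, at 0, 2.09 and 3.03 in empty vector and at 21.7, 29.5 and 27.1 in the libraries labelled hPRM1. Its hPRM2 difference was 4.39 (limma, adjusted p = 0.0334), beside 1.36% of 13126 genes called higher. LCK passed the filter only through hPRM2, so the filter favoured this direction. The other lymphocyte markers, among them CD3D and CD2, were at or near 0 in the hPRM2 libraries, 10 of 12 being listed at 0 in all 3. LCK was named after its values were seen.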
